A study of Mus musculus with 6 samples.

Results

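The propionyl-CoA and methylmalonyl-CoA route, with the genes that supply its cobalamin and biotin, was followed in brown adipose tissue of mice labelled knockout for FAM195A, against mice labelled heterozygous. Its 10 genes were taken by symbol from a table of 24062 gene symbols: the carboxylase subunits Pcca and Pccb, the epimerase Mcee, the mutase Mut, the cobalamin genes Mmaa, Mmab, Mmachc and Mmadhc, and the biotin genes Hlcs and Btd. All mice were male, of strain C57BL/6 and 12 weeks old, with 3 mice of the genotype FAM195A Knock out and 3 of the genotype FAM195A heterozygous. There is thus no wild-type group: the comparison sets loss of 1 copy against loss of both, and neither the construction of the allele nor the housing temperature is stated in the labels.

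Propionyl-CoA is left over when valine, isoleucine, methionine, threonine and odd-chain fatty acids are broken down in mitochondria. Propionyl-CoA carboxylase, which carries covalently bound biotin, adds a carboxyl group to give methylmalonyl-CoA, the epimerase turns this into its mirror form, and the mutase, which needs adenosylcobalamin, rearranges that form to succinyl-CoA of the citric acid cycle. In humans, loss of the carboxylase causes propionic acidemia, and loss of the mutase or of the genes that make its cofactor causes methylmalonic acidemia. Brown fat takes up and oxidises branched-chain amino acids when it makes heat.

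Reads counted in genes came to between 22418031 and 25084627 in the knockout-labelled libraries and between 18781401 and 20471963 in the heterozygous-labelled ones, or 51.0% to 58.3% and 43.9% to 48.4% of the column totals. The targeted gene did not bear out the labels: Fam195a stood at 71.3 ± 18.0 CPM (read counts scaled to a common library size, here with TMM factors) in knockout-labelled and 80.8 ± 19.1 CPM in heterozygous-labelled libraries (SD, n = 3 each; log2 fold change -0.18, edgeR quasi-likelihood test, adjusted p = 0.896). Gene-level counts cannot tell which exons remain, so directions below are those of the libraries labelled knockout. Library titles start with RF (knockout-labelled 1 and 2, heterozygous-labelled 1 and 2) or RE (knockout-labelled 3 and heterozygous-labelled 3), a prefix the labels do not explain, so values for RF and RE titles are also given. All 14 genes listed as brown adipocyte markers had counts in every library. The list includes Adipoq, Fabp4, Pparg and Plin1, which are general adipocyte genes. The summed level of the 14 was 20991 to 26106 CPM in the knockout-labelled and 21043 to 21914 CPM in the heterozygous-labelled libraries. Fabp4 made up a large part of it, at 9933 to 12355 CPM in the knockout-labelled and 9141 to 11670 CPM in the heterozygous-labelled libraries. Ucp1, the uncoupling protein of brown fat, had 3910 ± 2065 CPM in knockout-labelled and 4384 ± 1246 CPM in heterozygous-labelled libraries (SD, n = 3 each). Its level was 4390, 5693 and 1647 CPM in knockout-labelled 1, 2 and 3, against 4898, 5290 and 2963 CPM in heterozygous-labelled 1, 2 and 3. Within each label the RE-titled library had the lowest Ucp1 level. Of the 14, the fatty acid elongase Elovl3 rose, to 182, 161 and 216 CPM in knockout-labelled 1, 2 and 3, against 86.0, 98.9 and 88.3 CPM in heterozygous-labelled 1, 2 and 3 (log2 1.03, edgeR adjusted p = 0.0418), and Cidea, a lipid droplet protein, was above the heterozygous-labelled libraries in every knockout-labelled one without passing (log2 0.42, edgeR adjusted p = 0.421). Over all genes tested, 0.0526% rose past the edgeR threshold and 8.11% had every knockout-labelled library above. The log2 fold changes of the 14 ran from -0.79 to 1.03, with 9 below 0, 5 above and a median of -0.11. The 26 skeletal muscle markers also had counts in every library and differed with the label, summing to 7115, 4171 and 3860 CPM in knockout-labelled 1, 2 and 3, against 11248, 26974 and 34602 CPM in heterozygous-labelled 1, 2 and 3. In a bulk tissue, fewer cells of a type and less RNA per cell cannot be told apart.

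The upstream DNA of the 2 genes that fell, Pcca and Pccb, is shown first, with that of Mmab, whose start lies back to back with that of Mvk. Each line holds the 250 bases before the RefSeq start of the gene (GRCm38.p6), read 5′ to 3′ along the gene's own strand. Capitals mark the 5-letter CCAAT box on either strand (CCAAT or ATTGG).
Pcca, chr14:122534078-122534327, plus strand: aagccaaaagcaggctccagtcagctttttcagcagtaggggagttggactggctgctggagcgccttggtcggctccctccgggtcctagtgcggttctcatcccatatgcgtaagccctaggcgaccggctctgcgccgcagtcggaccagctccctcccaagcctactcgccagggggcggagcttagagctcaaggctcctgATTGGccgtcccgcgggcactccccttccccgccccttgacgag
Pccb, chr9:101034885-101035134, minus strand: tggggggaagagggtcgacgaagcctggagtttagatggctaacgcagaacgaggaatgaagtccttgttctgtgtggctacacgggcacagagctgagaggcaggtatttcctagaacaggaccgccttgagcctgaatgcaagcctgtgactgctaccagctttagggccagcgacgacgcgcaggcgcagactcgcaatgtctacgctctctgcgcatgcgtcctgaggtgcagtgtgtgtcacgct
Mmab, chr5:114444028-114444277, minus strand: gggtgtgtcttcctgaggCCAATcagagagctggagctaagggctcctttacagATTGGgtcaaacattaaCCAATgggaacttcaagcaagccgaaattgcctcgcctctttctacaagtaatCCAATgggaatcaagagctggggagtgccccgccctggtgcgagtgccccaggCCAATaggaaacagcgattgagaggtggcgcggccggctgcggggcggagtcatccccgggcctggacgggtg
The Pcca stretch holds 1 CCAAT box, the Pccb stretch 0 and the Mmab stretch 5, with G and C making up 64.8%, 57.6% and 58.4% of the bases. Windows of 300 bases, which add the 50 bases after the RefSeq start, were found for 8 of the 10 genes, all but Mut and Mmadhc. Such windows were also searched on both strands for the ERR element (TCAAGGTCA), the cAMP response element (TGACGTCA) and the sterol response element (TCACCCCAC). None of these letters occurred in the 12 windows of the 8 genes, and they occur in 0.423%, 1.79% and 0.551% of the 32851 windows of all genes, against 37.4% for the CCAAT box. No match says only that these exact letters are not in these windows. The last bases of both Mmaa windows and of the Pcca window not shown were not found near the start of an annotated transcript of the gene.

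Both subunits of propionyl-CoA carboxylase fell in the knockout-labelled libraries, to 37.7% and 34.6% of the heterozygous-labelled level, and the mutase transcript stood at 40.4% of it without passing the threshold. The epimerase between them stood at 97.1%, the 4 cobalamin genes at 63.3% to 84.4%, and the 2 biotin genes at 107% and 138%, with none of these past the threshold. Of the 10 genes, all of which passed the filter on low counts, 2 fell and 0 rose past the threshold (adjusted p of 0.05). At an unadjusted p under 0.05, 5 were lower and 0 higher, and DESeq2 called 4 lower and 0 higher. Over all 13300 genes tested, 0.534% fell and 0.0526% rose past the edgeR threshold, or 0.586% together. At an unadjusted p under 0.05, 8.04% of them were lower and 4.05% higher. DESeq2 called 5.04% lower and 0.995% higher of the 12769 genes to which it gave an adjusted p. All DESeq2 shares given below have that same base. In 6 of the 10 genes every knockout-labelled library lay below every heterozygous-labelled one, as did 9.89% of all genes tested, and in 0 of the 10 did every one lie above, against 8.11% of all genes tested. In the other 4 the groups overlapped. The median log2 fold change of the 10 genes was -0.37, against 0.02 over all genes tested.

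**Figure D1:**
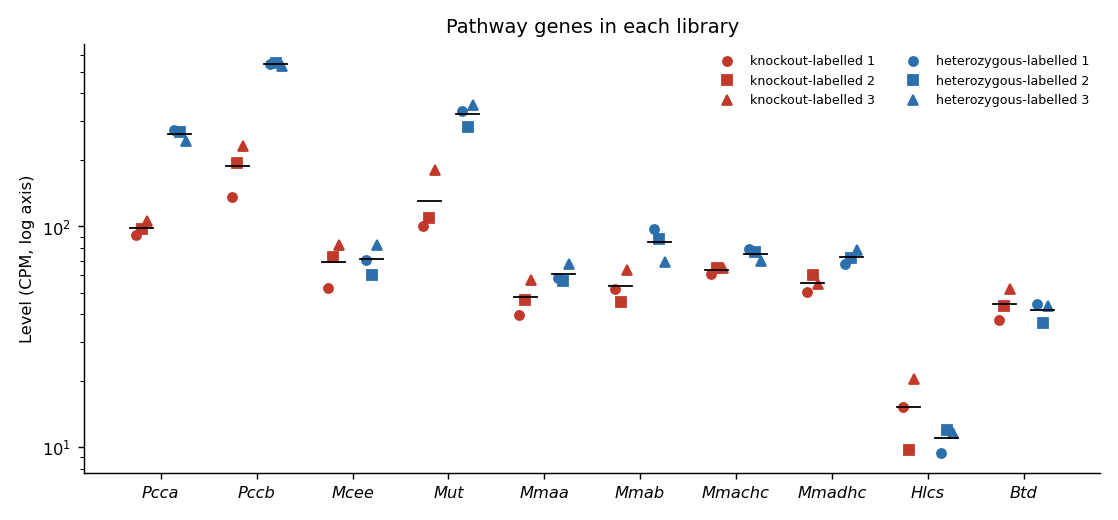
Level of each of the 10 genes in every library (CPM, log axis); red points are knockout-labelled and blue points heterozygous-labelled libraries, and black bars are group means (n = 3 each). Pcca, Pccb and Mut separate widely by label, while Mcee, Mmaa, Hlcs and Btd overlap.

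Pcca, on chromosome 14 from 122534324 to 122891100 (GRCm38, plus strand), encodes the alpha subunit of the carboxylase, which carries the biotin and the biotin carboxylase activity. Its level was 91.5, 97.3 and 106 CPM in knockout-labelled 1, 2 and 3, against 273, 268 and 243 CPM in heterozygous-labelled 1, 2 and 3. The groups did not overlap, and the lowest heterozygous-labelled library was above the highest knockout-labelled one by more than the whole spread of either group. The log2 fold change was -1.41 (SE 0.127, 95% interval -1.71 to -1.11, edgeR quasi-likelihood test, adjusted p = 0.0152), and Pcca ranked 6 of the 13300 genes by p. It was -1.52 among RF-titled libraries alone and -1.19 between the RE-titled pair, which has 1 library per label and no test. Pcca shares 241 exon bases with Ggact, a gamma-glutamylamine cyclotransferase gene on the opposite strand, and counting without strand would mix or drop their reads there. Ggact itself stood at 13.4 ± 2.34 CPM in knockout-labelled and 14.6 ± 1.21 CPM in heterozygous-labelled libraries (SD, n = 3 each).

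Pccb, on chromosome 9 from 100982032 to 101034898 (minus strand), encodes the beta subunit, which transfers the carboxyl group to propionyl-CoA. It stood at 136, 194 and 232 CPM in knockout-labelled 1, 2 and 3, and at 541, 547 and 535 CPM in heterozygous-labelled 1, 2 and 3. The knockout-labelled libraries were lower and also more spread than the heterozygous-labelled ones (SD 48.5 and 5.85 CPM, n = 3 each). The log2 fold change was -1.53 (SE 0.206, 95% interval -2.01 to -1.05, edgeR adjusted p = 0.0349), with -1.72 among RF titles alone and -1.20 between the RE-titled pair. Reads of Pcca per read of Pccb were 0.673, 0.501 and 0.457 in knockout-labelled 1, 2 and 3, and 0.504, 0.489 and 0.454 in heterozygous-labelled 1, 2 and 3. This subunit ratio overlapped between the labels (difference 0.15 on the log2 scale, exact permutation test, two-sided p = 0.5, where the smallest p that 3 against 3 allows is 0.1), and without knockout-labelled 1 the difference was -0.01.

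The calls on both subunits depended on single libraries. Pcca kept its call without knockout-labelled 3 (edgeR adjusted p = 0.0206), heterozygous-labelled 1 (adjusted p = 0.012) or heterozygous-labelled 3 (adjusted p = 0.0487), and lost it without knockout-labelled 1 (edgeR adjusted p = 0.132), knockout-labelled 2 (adjusted p = 0.106) or heterozygous-labelled 2 (adjusted p = 0.102), and its log2 fold change ran from -1.48 to -1.36 over the fits that left out 1 library. Pccb kept its call without knockout-labelled 3 (edgeR adjusted p = 0.0229) or heterozygous-labelled 1 (adjusted p = 0.0235), and lost it in the same 3 fits as Pcca (edgeR adjusted p = 0.132, 0.154 and 0.147) and without heterozygous-labelled 3 (adjusted p = 0.104), with log2 fold changes from -1.72 to -1.34. In the fits without knockout-labelled 1, knockout-labelled 2 or heterozygous-labelled 2, edgeR called 0 of all genes tested in either direction. At an unadjusted p under 0.05, 950 of 13433, 927 of 13467 and 898 of 13527 genes tested were lower, in the same order. Of the 10 pathway genes, 4, 5 and 5 were among them. On the higher side were 500, 466 and 359 genes, with 0, 1 and 0 of the pathway genes.

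Mcee, on chromosome 7 from 64392607 to 64412125 (plus strand), encodes methylmalonyl-CoA epimerase, the step between the carboxylase and the mutase. Its level was 52.5, 72.5 and 82.2 CPM in knockout-labelled 1, 2 and 3, against 70.4, 60.6 and 82.4 CPM in heterozygous-labelled 1, 2 and 3. The groups overlapped across nearly their whole range. The log2 fold change was -0.04 (SE 0.197, edgeR adjusted p = 0.975), and its 95% interval reached from 70.5% to 134% of the heterozygous-labelled level, with a lower end above the shares left of Pcca and Pccb.

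Mut, on chromosome 17 from 40934685 to 40961988 (plus strand) and named Mmut in newer annotation, encodes methylmalonyl-CoA mutase, the adenosylcobalamin enzyme that delivers succinyl-CoA. It stood at 101, 110 and 181 CPM in knockout-labelled 1, 2 and 3, and at 333, 281 and 354 CPM in heterozygous-labelled 1, 2 and 3. All knockout-labelled libraries were below all heterozygous-labelled ones, and knockout-labelled 3 was the nearest to them. The log2 fold change was -1.31 (SE 0.242, 95% interval -1.88 to -0.74, edgeR adjusted p = 0.0719). The size was thus close to that of the carboxylase subunits, and the threshold was missed. The call was made by DESeq2 (log2 -1.31, adjusted p = 4.59e-05), with the title prefix as a covariate (-1.35, edgeR adjusted p = 0.00789), within the RF-titled libraries (-1.55, edgeR adjusted p = 0.015) and without knockout-labelled 3 (-1.63, edgeR adjusted p = 0.0216). It was also made with library size alone as the scaling (edgeR adjusted p = 0.0449) and with no filter on low counts (edgeR adjusted p = 0.0483). The other 10 of the 16 alternatives did not make the call. Among them were the fits without knockout-labelled 1 (edgeR adjusted p = 0.159) or knockout-labelled 2 (adjusted p = 0.268). The call was also missed without heterozygous-labelled 1, 2 or 3 (edgeR adjusted p = 0.079, 0.212 and 0.199) and by limma-voom (adjusted p = 0.0707). In the RE-titled pair the log2 ratio was -0.97. Reads of Mut per read of Pcca were 1.10, 1.13 and 1.70 in knockout-labelled 1, 2 and 3, against 1.22, 1.05 and 1.46 in heterozygous-labelled 1, 2 and 3 (difference 0.06 on the log2 scale, exact permutation test, two-sided p = 0.8).

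**Figure D2:**
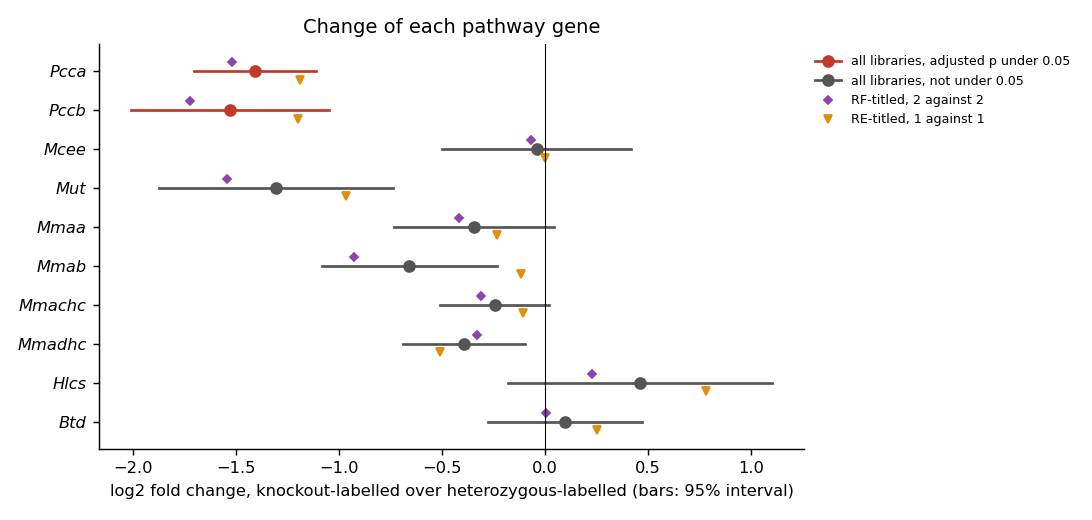
Log2 fold change of each gene, knockout-labelled over heterozygous-labelled, with its 95% interval over all 6 libraries (circles and bars) and the values within the RF-titled (diamonds) and RE-titled (triangles) libraries. Pcca, Pccb and Mut lie between -1.72 and -0.97 in each set of libraries, with the RE-titled pair nearest to 0, and Mmab shows the widest gap between the prefixes among the cobalamin genes.

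The cobalamin genes serve the mutase and methionine synthase. Mmachc takes the upper ligand off incoming cobalamin in the cytosol, Mmadhc directs it towards the mitochondrion or towards methionine synthase, Mmab adds the adenosyl group, and Mmaa is the G protein that loads and guards the cofactor in the mutase. None of the 4 passed the edgeR threshold, although 2 were lower at an unadjusted p under 0.05, against 8.04% of all genes tested, and 3 had all knockout-labelled libraries below the others, against 9.89%. Mmab (chromosome 5, 114431034 to 114444060, minus strand) had the lowest share of the 4, at 52.0, 45.5 and 63.5 CPM in knockout-labelled 1, 2 and 3, and at 97.5, 87.8 and 68.9 CPM in heterozygous-labelled 1, 2 and 3. Knockout-labelled 3 and heterozygous-labelled 3, the RE-titled pair, lay closest together. The log2 fold change was -0.66 (SE 0.183, edgeR adjusted p = 0.155), with -0.93 among RF titles alone (edgeR adjusted p = 0.0374) and -0.12 between the RE-titled pair. DESeq2 called it (adjusted p = 0.0443).

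Mmadhc (chromosome 2, 50279881 to 50296801, minus strand) stood at 50.5, 60.4 and 55.0 CPM in knockout-labelled 1, 2 and 3, against 67.6, 71.9 and 78.5 CPM in heterozygous-labelled 1, 2 and 3. The gap between the groups was narrower than the range of either (log2 -0.39, SE 0.127, edgeR adjusted p = 0.232). Mmachc (chromosome 4, 116702279 to 116708406, minus strand) stood at 60.9, 64.6 and 64.7 CPM in knockout-labelled 1, 2 and 3, against 79.0, 76.7 and 69.8 CPM in heterozygous-labelled 1, 2 and 3, with no overlap (log2 -0.25, SE 0.113, edgeR adjusted p = 0.47). For Mmaa (chromosome 8, 79263598 to 79294937, minus strand) the levels were 39.7, 46.5 and 57.5 CPM in knockout-labelled 1, 2 and 3, and 58.5, 56.5 and 67.6 CPM in heterozygous-labelled 1, 2 and 3. Knockout-labelled 3 was above heterozygous-labelled 2, so the groups overlapped (log2 -0.35, SE 0.166, edgeR adjusted p = 0.491).

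The biotin genes overlapped between the labels. Hlcs (chromosome 16, 94128882 to 94313571, minus strand) encodes holocarboxylase synthetase, which attaches biotin to the carboxylases, and had the lowest counts of the 10 genes, from 176 reads in heterozygous-labelled 1 upwards. It stood at 15.3, 9.75 and 20.4 CPM in knockout-labelled 1, 2 and 3, against 9.39, 11.9 and 11.7 CPM in heterozygous-labelled 1, 2 and 3. Knockout-labelled 2 lay among the heterozygous-labelled libraries and the other knockout-labelled ones above them (log2 0.46, SE 0.274, 95% interval -0.18 to 1.10, edgeR adjusted p = 0.635). Btd (chromosome 14, 31641028 to 31668579, plus strand) encodes biotinidase, which frees biotin for reuse. Its level was 37.8, 43.9 and 52.2 CPM in knockout-labelled 1, 2 and 3, and 44.8, 36.7 and 43.7 CPM in heterozygous-labelled 1, 2 and 3 (log2 0.10, SE 0.16, edgeR adjusted p = 0.92). Its exons share 108 bases with those of Hacl1 on the opposite strand, and Mut shares 95 with Cenpq.

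Setting each gene against Pcca in the same library removes the library size from the comparison. Since Pcca itself fell without overlap, most genes have more reads per Pcca read in every knockout-labelled library: 88% of all other genes tested did, and 7 of the 9 other pathway genes did, which is near that background. The ratios of Pccb and Mut overlapped between the labels. Mcee gave 0.573, 0.746 and 0.774 reads per Pcca read in knockout-labelled 1, 2 and 3, against 0.258, 0.226 and 0.339 in heterozygous-labelled 1, 2 and 3 (difference 1.35 on the log2 scale, exact permutation test, two-sided p = 0.1, adjusted over the 9 ratios 0.129). For Mmachc the ratio was 0.666, 0.664 and 0.609 in knockout-labelled 1, 2 and 3, and 0.289, 0.287 and 0.287 in heterozygous-labelled 1, 2 and 3 (difference 1.17 on the log2 scale). Differences of the other separate ratios ran from 0.75 for Mmab to 1.82 for Hlcs on the log2 scale, and p = 0.1 in this exact permutation test is the smallest that 3 against 3 allows.

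**Figure D3:**
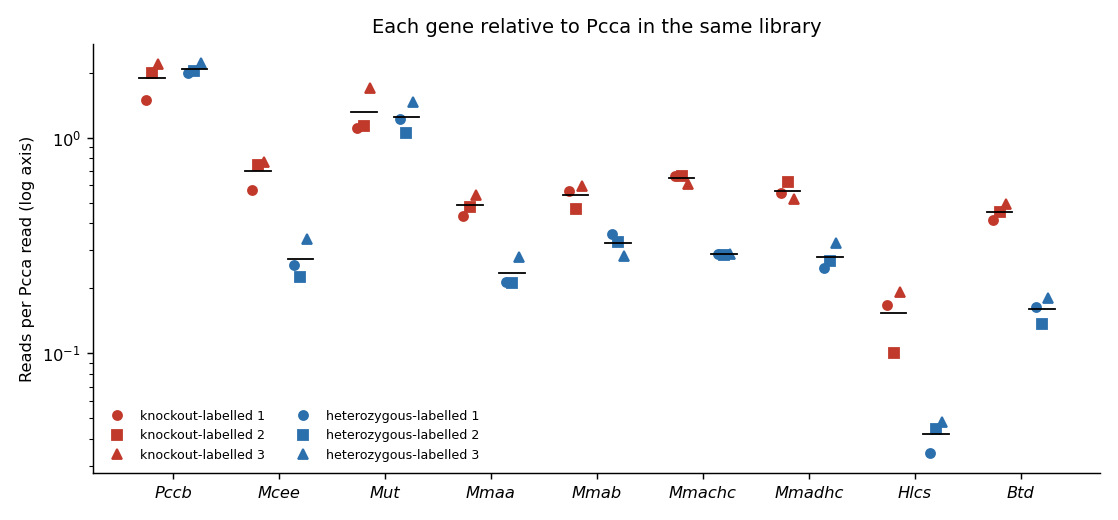
Reads of each gene per read of Pcca in the same library (log axis, not corrected for gene length), red for knockout-labelled and blue for heterozygous-labelled libraries, with group means as black bars (n = 3 each). Pccb and Mut overlap between the labels, and the other 7 genes lie higher in all knockout-labelled libraries, as do 88% of all other genes tested.

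Per length of transcript, the order of the genes differed between the labels. Levels here are CPM per kilobase of all annotated exons of a gene (GENCODE release M21), which understates genes with rarely used exons. Exon use was not measured for any of the 10 genes, so their order rests on these lengths. In the knockout-labelled libraries Mcee (72.2 ± 15.9) and Pccb (67.6 ± 17.5) led with overlapping values, followed by Mut (34.5 ± 11.6), Mmachc (28.5 ± 0.973) and Mmadhc (27.5 ± 2.46), which overlapped from neighbour to neighbour (CPM per kilobase, SD, n = 3). Btd (19.0 ± 3.08) and Pcca (18.9 ± 1.42) came next and overlapped (CPM per kilobase, SD, n = 3). Below them in mean were Mmab (14.6 ± 2.49), Mmaa (7.95 ± 1.49) and Hlcs (1.70 ± 0.599), in the same units. Mmab was separate from Pcca but not from Btd, whose lowest value was 16.1 against 17.3 for the highest of Mmab. Mmaa was separate from Mmab, and Hlcs from Mmaa. In the heterozygous-labelled libraries Pccb stood alone at the top (195 ± 2.11), above Mut (85.3 ± 9.97) and Mcee (74.4 ± 11.4), whose values overlapped, and then Pcca (50.1 ± 3.06), which was separate from Mcee (CPM per kilobase, SD, n = 3). Mmadhc (36.1 ± 2.74) and Mmachc (33.8 ± 2.14) overlapped, as did Mmab (23.1 ± 3.97) and Btd (17.7 ± 1.88), with Mmaa (10.1 ± 0.983) and Hlcs (1.23 ± 0.158) below them (CPM per kilobase, SD, n = 3).

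Of the 10 genes, 7 have a neighbour in the count table that starts within 1000 bases on the opposite strand, and none of these neighbours passed the edgeR threshold, an unadjusted p under 0.05 or DESeq2. Over all genes tested, edgeR called 0.586%, 8.04% were lower and 4.05% higher at that unadjusted p, and DESeq2 called 5.04% lower and 0.995% higher. For 7 genes, no call is near these shares. Mvk, mevalonate kinase of cholesterol synthesis, starts 209 bases from Mmab and stood at 16.9 ± 1.48 CPM in knockout-labelled and 17.1 ± 2.15 CPM in heterozygous-labelled libraries (SD, n = 3 each; log2 -0.01, edgeR adjusted p = 0.988). Reads of Mmab per read of Mvk were 3.09, 2.46 and 4.10 in knockout-labelled 1, 2 and 3, against 5.02, 5.26 and 4.54 in heterozygous-labelled 1, 2 and 3. The labels did not overlap in this ratio, as they did not for Mmab alone (difference -0.65 on the log2 scale, exact permutation test, two-sided p = 0.1, adjusted over the 7 pairs 0.233). In all, 3 of the 7 pairs had ratios without overlap. The others were Mut to Cenpq (difference -1.25) and Mmaa to Gm4890 (-0.71), each at the same p, although Mmaa alone overlapped. The share of such ratios over all genes was not computed. Cenpq, a kinetochore protein gene that starts 362 bases from Mut, stood at 2.16 ± 0.549 CPM in knockout-labelled and 2.40 ± 0.934 CPM in heterozygous-labelled libraries (SD, n = 3 each; log2 -0.16, edgeR adjusted p = 0.95). Mphosph10, a ribosome biogenesis gene that starts 339 bases from Mcee, was at 29.1 ± 1.43 and 28.2 ± 3.13 CPM (SD, n = 3 each; log2 0.04), and Hacl1, a peroxisomal lyase gene 258 bases from Btd, at 41.2 ± 5.85 and 45.9 ± 1.10 CPM (log2 -0.15). The log2 fold changes of the other neighbours were 0.35 for Gm4890 beside Mmaa, -0.07 for Ccdc163 beside Mmachc and -0.02 for Gm13483 beside Mmadhc.

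The steps of valine and isoleucine breakdown that lead to propionyl-CoA had log2 fold changes below 0 in 12 of 12 genes, with a median of -1.02, and 5 of the 12 fell at an adjusted p of 0.05 against 0.534% of all genes tested. Dbt, the acyltransferase core of the branched-chain ketoacid dehydrogenase, stood at 79.0 ± 11.3 CPM in knockout-labelled and 208 ± 56.2 CPM in heterozygous-labelled libraries (SD, n = 3 each; log2 -1.40, SE 0.216, edgeR adjusted p = 0.0475). The others that fell were Acat1, the thiolase that releases propionyl-CoA from isoleucine (log2 -1.80), Acad8, isobutyryl-CoA dehydrogenase of the valine branch (-1.22), Bckdha (-1.07) and Dld (-0.97). Aldh6a1, which makes propionyl-CoA from the valine branch, did not pass by edgeR (log2 -1.12, edgeR adjusted p = 0.223), while DESeq2 called it (adjusted p = 0.0256). Hsd17b10 of the isoleucine branch was at -0.08. Of the 12 genes, DESeq2 called 9 lower, 11 were lower at an unadjusted p under 0.05 and 11 lay below without overlap. The shares over all genes were 5.04%, 8.04% and 9.89%. Downstream, 1 of the 3 succinyl-CoA ligase genes fell: Suclg2, the GTP-forming beta subunit, was at 50.1 ± 17.0 CPM in knockout-labelled and 152 ± 15.1 CPM in heterozygous-labelled libraries (SD, n = 3 each; log2 -1.60, edgeR adjusted p = 0.0438). The ATP-forming beta subunit Sucla2 (log2 -0.85, edgeR adjusted p = 0.197) and the shared alpha subunit Suclg1 (-0.51, edgeR adjusted p = 0.251) did not pass by edgeR. DESeq2 called 2 of the 3 lower, Suclg2 and Sucla2 (adjusted p = 0.0287 for Sucla2), against 5.04% of all genes. All 3 were lower at an unadjusted p under 0.05 and lay below without overlap, against 8.04% and 9.89% of all genes tested. The edgeR share was 0.534%.

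Other enzymes of propionyl-CoA, malonyl-CoA and methylmalonyl-CoA were all below 0, with a median log2 fold change of -0.69 over 7 genes, and 0 of the 7 passed by edgeR (4 had an unadjusted p under 0.05 and 4 were called by DESeq2, all lower, against 8.04% and 5.04% of all genes). Acsf3, the mitochondrial malonyl-CoA and methylmalonyl-CoA synthetase, had the smallest p of them, at 57.3 ± 5.55 CPM in knockout-labelled and 94.8 ± 13.1 CPM in heterozygous-labelled libraries (SD, n = 3 each; log2 -0.73, edgeR adjusted p = 0.0789). Crat, carnitine acetyltransferase, which can take propionyl groups to carnitine, was at -0.69 (edgeR adjusted p = 0.107). Clybl, the citramalyl-CoA lyase whose loss in humans goes with low cobalamin, was at -0.60 (edgeR adjusted p = 0.111), and Acss1, a mitochondrial short-chain acyl-CoA synthetase, at -1.44 (edgeR adjusted p = 0.175).

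The genes that bring in cobalamin held no call, and with 0.586% of all genes called, that count is near the background. Of 10 listed genes for uptake, lysosomal export, methionine synthase and the control of Mmachc, 9 passed the filter on low counts, 0 passed the edgeR threshold, an unadjusted p under 0.05 or DESeq2, and in all 9 the groups overlapped; their median log2 fold change was 0.05. Tcn2, the plasma carrier of cobalamin, stood at 127 ± 45.1 CPM in knockout-labelled and 119 ± 31.6 CPM in heterozygous-labelled libraries, and its receptor Cd320 at 9.19 ± 1.38 and 8.89 ± 1.52 CPM (SD, n = 3 each). The lysosomal exporters Lmbrd1 (log2 0.02) and Abcd4 (0.19) were close to 0. Methionine synthase Mtr (log2 -0.30, edgeR adjusted p = 0.734) and its reductase Mtrr (-0.41, edgeR adjusted p = 0.516), the cytosolic users of cobalamin, did not pass, nor did Thap11, a transcription factor that in humans controls the Mmachc ortholog (0.32, edgeR adjusted p = 0.629).

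Among the other biotin-dependent carboxylases, both subunits of methylcrotonyl-CoA carboxylase, the mitochondrial enzyme of leucine breakdown, fell. Mccc1, its biotin-carrying subunit, stood at 67.5 ± 4.97 CPM in knockout-labelled and 189 ± 19.0 CPM in heterozygous-labelled libraries (SD, n = 3 each; log2 -1.49, SE 0.134, edgeR adjusted p = 0.0152). Mccc2, its partner, had 55.7 ± 10.2 CPM in knockout-labelled and 133 ± 15.0 CPM in heterozygous-labelled libraries (SD, n = 3 each; log2 -1.26, edgeR adjusted p = 0.0368). Pyruvate carboxylase, listed in the table as Pcx, was at 761 ± 126 CPM in knockout-labelled and 941 ± 69.7 CPM in heterozygous-labelled libraries (SD, n = 3 each; log2 -0.31, edgeR adjusted p = 0.59). The acetyl-CoA carboxylases of fat synthesis and its control, Acaca (log2 0.49, edgeR adjusted p = 0.772) and Acacb (0.36, edgeR adjusted p = 0.63), did not pass, and the biotin transporter Slc5a6 was at -0.06.

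**Figure D4:**
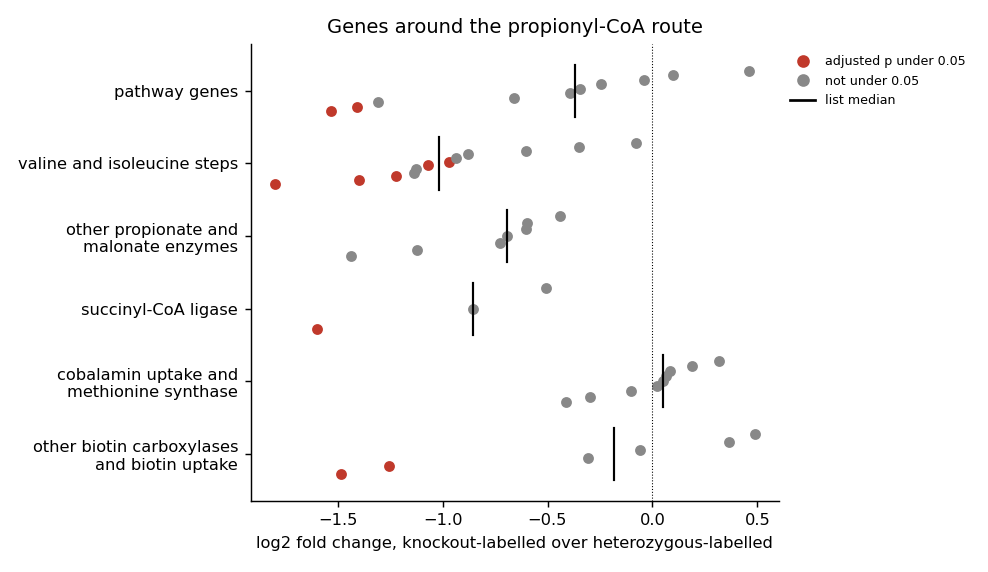
Log2 fold change (knockout-labelled over heterozygous-labelled) of each tested gene, one point per gene, for the 10 pathway genes and 5 lists around them, with list medians as black bars and genes past an adjusted p of 0.05 in red. The valine and isoleucine genes have a median of -1.02 and the cobalamin uptake genes one of 0.05.

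Summed muscle transcripts were lower in every knockout-labelled library, as the carboxylase and mutase transcripts were, and their part in the result was not tested. Of the 26 muscle markers, 0 passed by edgeR, 22 were called lower by DESeq2, 26 had an unadjusted p under 0.05 and log2 fold changes below 0 and 25 had groups that did not overlap, with a median of -2.23. The shares over all genes were 5.04% lower by DESeq2, 8.04% lower at that unadjusted p and 9.89% below without overlap. Within the heterozygous-labelled libraries the muscle sum was 11248, 26974 and 34602 CPM in numbers 1, 2 and 3. In the same libraries Pccb was at 541, 547 and 535 CPM, Pcca at 273, 268 and 243 CPM and Mut at 333, 281 and 354 CPM. Within the knockout-labelled ones the muscle sum was highest in number 1, at 7115 CPM, where Pcca, Pccb and Mut were lowest. Number 3 of each label is the RE-titled library, so its difference from numbers 1 and 2 cannot be told apart from the title prefix. The 8 macrophage markers summed to 178, 142 and 250 CPM in knockout-labelled 1, 2 and 3, against 177, 95.9 and 241 CPM in heterozygous-labelled 1, 2 and 3. The 8 endothelial markers summed to 705, 728 and 698 CPM in knockout-labelled 1, 2 and 3, against 698, 749 and 598 CPM in heterozygous-labelled 1, 2 and 3, and both sums overlapped between the labels.

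**Figure D5:**
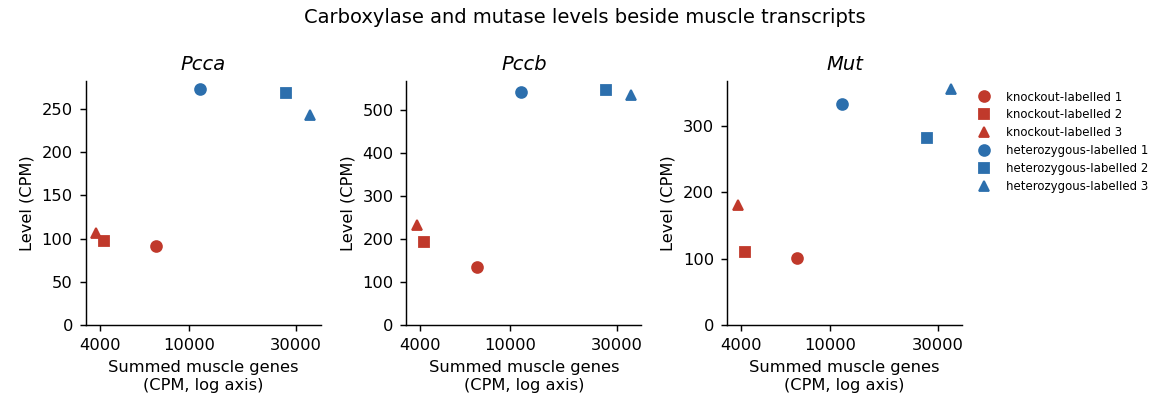
Level of Pcca, Pccb and Mut (CPM) against the summed level of 26 skeletal muscle markers (CPM, log axis) in each of the 6 libraries. Heterozygous-labelled libraries span 11248 to 34602 CPM of muscle transcripts at Pccb levels of 535 to 547 CPM, and all knockout-labelled libraries lie lower on both axes.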

How the data were processed

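RNA of frozen, pulverised brown adipose tissue from 3 mice per genotype was sequenced, per the labels' protocols. The authors deposited raw read counts per gene symbol, 1 column per library. Per the submitters' processing notes, STAR 2.7.2b and Bowtie2 2.3.4.3 (aligners), HTSeq, SAMtools 1.9, edgeR and Trim Galore are named, with build mm10 and no order. These notes state neither the annotation and strand setting nor the handling of multiply aligned reads. The 5 lines that name no gene (41.7% to 56.1% of column totals) were left out.

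Groups follow the genotype label, and replicates are numbered in accession order, which pairs nothing. Differences were tested with edgeR 4.0.16 (R 4.3.3): TMM, filterByExpr (minimum count 10, total 15; 13300 genes kept), robust quasi-likelihood F test, two-sided, Benjamini-Hochberg over all genes tested at 0.05. The standard error is the fitted log2 coefficient over the root of F. Ratios within libraries were tested by exact permutation; RE-pair ratios had 0.5 CPM added. DESeq2 1.42.0 and limma-voom 3.58.1 were alternatives. On simulated counts of this comparison (13155 genes) edgeR recovered 51 of 100 genes changed by 1 and 99 of 100 changed by 2 on the log2 scale, with 6 false calls among 156. Each simulated gene was drawn independently with the average spread of genes at its level, without shifts shared by the genes of a library. Recovery in the real libraries could therefore be lower. Replicates differed by more than sampling noise (chi-square over degrees of freedom, 39.3 to 126). The value was 41.6 for knockout-labelled 1 and 2 and 39.3 for heterozygous-labelled 1 and 2, which are RF-titled. Pairs of an RF-titled with an RE-titled library of the same label gave 101 to 126.

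Positions and lengths come from GENCODE release M21 on GRCm38, the assembly mm10 names. Promoter windows come from RefSeq on GRCm38.p6.

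The genes, lists and tests were chosen with earlier results of these data known; the 9 ratios to Pcca and the 7 ratios to neighbours were chosen after the values were seen. Named genes were the 10 members, list genes that were called or had the smallest p (up to 4 a list), fixed cobalamin and biotin genes, neighbours, Ucp1 and Fam195a; Aldh6a1 and Hsd17b10 were added after their values were seen.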

Additional observations from a re-analysis of the deposited data

How the results depend on the processing

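With RLE scaling, library size alone, muscle genes out of the library sizes, a mean CPM of at least 1, limma-voom or no robust estimation, the counts of genes called stayed within 1.5 times. All genes called lower came to 71, and to 644 by DESeq2, 244 with the title prefix as a covariate, 113 in the RF-titled libraries alone, 440 at an adjusted p of 0.1 and 0 to 381 with 1 library left out. All genes called higher came to 7, and to 127, 67, 19 and 60 in the same order, 13 with no filter on low counts and 0 to 19 with 1 library left out. Of the 10 pathway genes, 2 fell, 4 by DESeq2 and in the RF-titled libraries alone (Pcca, Pccb, Mut and Mmab), and 0 to 3 with 1 library left out; 0 rose under all 17 alternatives. The median log2 fold change of the 10 genes stayed between -0.45 and -0.28. Leaving out single libraries changed the sign of small differences: Mcee ran from -0.19 to 0.12, Btd from -0.0400 to 0.205, Fam195a from -0.294 to 0.0325 and Ucp1 from -0.54 to 0.19. Likewise the log2 difference of Pcca to Pccb ran from -0.0101 to 0.269 and that of Mut to Pcca from -0.14 to 0.18, with -0.0234 in the RF-titled libraries; the cause was not tested. Pcca, Pccb, Mut, Mmaa, Mmab, Mmachc and Mmadhc stayed below 0 and Hlcs above 0 under all 16 alternatives. No paired analysis was possible because the labels give the groups no shared replicate numbers; the title prefix, which is no replicate number, was fitted as the covariate above. With 3 mice per label, the 95% intervals of the genes that missed the threshold still hold sizeable changes, and the counts behind each value ran from 176 reads (Hlcs) to 11595 (Pccb).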
